A study of Mus musculus with 62 samples.

Results

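The effect of the R6/2 transgene on striatal RNA was measured in 8 of the 62 libraries of the series, 4 from R6/2 mice and 4 from mice labelled NCAR, all of which had received N-Delta. The 8 libraries were taken by their titles, but the comparison and its check for a length trend were chosen with earlier results of these data known. R6/2 mice carry the first exon of human HTT with an expanded CAG repeat. The label NCAR is not expanded in the sources used here and was taken as the control genotype without the transgene. N-Delta is the control for N-ZFP, a zinc-finger virus that represses mutant Huntingtin, and was packaged in the PHP.eB capsid, which spreads through the brain from the blood. It was given at 4 weeks of age, and RNA was taken from whole striatum at 11 weeks. Both groups therefore carried the same virus, and neither was an untreated animal. The cell type label says neuron, whereas the treatment protocol calls the PHP.eB viruses astrocytic, and the cells that N-Delta reached could not be checked from the gene counts. R6/2 and NCAR mice given A-Delta, the astrocyte control virus (n = 4 and 4), were used for comparison. The labels do not give sex, litter, dissection date or sequencing batch. Whether libraries came from separate animals is not stated, so the p-values measure the spread between libraries.

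Huntington's disease is caused by a CAG expansion in the huntingtin gene. Spiny projection neurons make up most neurons of the striatum. They fall into a direct pathway, marked by the dopamine receptor gene Drd1, and an indirect pathway, marked by Drd2, Adora2a and the enkephalin gene Penk. In R6/2 mice these neurons lose the RNA of many of their identity genes before many cells die. Whole striatum also holds interneurons, astrocytes, oligodendrocytes and their precursors, microglia and vessels. In such bulk RNA, fewer cells of a type and less RNA per cell cannot be told apart.

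Levels are in CPM, the reads of a gene per 1000000 counted reads, scaled with edgeR's TMM factors. Changes are log2 fold changes of R6/2 over NCAR ± SE. The words rose and fell are used where a gene's edgeR quasi-likelihood p, adjusted by Benjamini-Hochberg over all 21752 genes tested, was under 0.05. The deposited counts summed to 63243181 to 67632089 in R6/2 and to 50097471 to 61503778 in NCAR. The totals of the R6/2 libraries were all above those of the NCAR libraries (exact two-sided permutation p = 0.0286, the smallest that 4 against 4 can give; adjusted p = 0.05 over 7 library measures). Ppp1r1b, which encodes the striatal phosphoprotein DARPP-32, lay at 566, 889, 662 and 556 CPM in NCAR and 321, 286, 278 and 277 CPM in R6/2, so this striatal marker was abundant in all 8. Without TMM scaling, Xist lay at or below 0.0631 CPM and the Y-linked gene Ddx3y at or above 96.5 CPM in all 8, so no female library was seen. RNA of hypothalamic neuropeptides differed between libraries. The summed level of hypothalamic marker genes, also without TMM scaling, was 23.7, 10.4, 12.2 and 67.6 CPM in NCAR libraries 1 to 4, and 4.78, 5.30, 3.43 and 3.72 in the R6/2 libraries (exact permutation p = 0.0286; adjusted p = 0.05). Under A-Delta the NCAR mean was also higher, at 8.37 CPM against 3.96 in R6/2 (exact permutation p = 0.0286, adjusted p = 0.2).

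The libraries also differed by a trend with transcript length. Each library was given a length index, the Pearson correlation across 15820 protein-coding genes between its log2 CPM, relative to the mean of the 31 bulk libraries of the R6/2 series, and the log2 length of the gene's longest transcript. An index above 0 means that long transcripts were relatively higher in that library. The index was -0.485, -0.241, -0.369 and -0.308 in NCAR N-Delta and 0.309, 0.192, 0.178 and 0.198 in R6/2 N-Delta. All 4 NCAR libraries lay below 0 and all 4 R6/2 libraries above it. The means were -0.351 ± 0.104 and 0.219 ± 0.060 (SD, n = 4 each), which lie 0.570 apart (exact two-sided permutation p = 0.0286; adjusted p = 0.05 over 7 measures). Under A-Delta the means were 0.078 ± 0.171 in NCAR and 0.104 ± 0.052 in R6/2 (difference 0.026; exact permutation p = 0.943). Of the 8 bulk groups, NCAR N-Delta had the lowest mean and R6/2 N-Delta the highest, and the other 6 means lay between -0.042 and 0.104. Single libraries varied more widely within some of these groups. The index ran from -0.346 to 0.398 in R6/2 N-ZFP and from -0.332 to 0.145 in NCAR N-ZFP. Ribosomal protein genes, which are short, took 0.835% ± 0.111 of counts in NCAR and 0.509% ± 0.015 in R6/2 (exact permutation p = 0.0286; adjusted p = 0.05). An index of GC content did not separate the groups (-0.120 and -0.100; exact permutation p = 0.971), nor did the share of mitochondrial counts (9.21% and 8.70%; exact permutation p = 0.571).

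**Figure D1:**
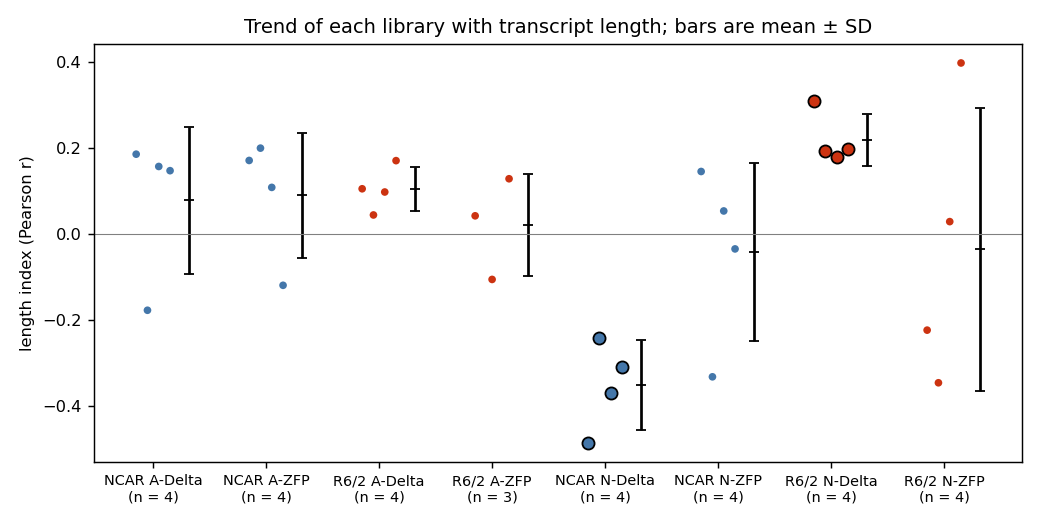
Length index (Pearson r, no unit) of each of the 31 bulk libraries of the R6/2 series, by group; large points are the 8 N-Delta libraries, and bars are group means ± SD. The NCAR N-Delta libraries lie from -0.485 to -0.241 and the R6/2 N-Delta libraries from 0.178 to 0.309. The other groups straddle or lie near 0, and R6/2 N-ZFP has the widest range, from -0.346 to 0.398.

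The genotype effect showed the same length trend. It comes from the same counts as the index, so it describes that trend by gene and is not a second, independent result. With protein-coding genes cut into 10 bins of rising length, in the shortest bin (102 to 1392 bases) the median log2 fold change was -0.56, with 4.85% of genes higher and 58.3% lower in R6/2. In the longest bin (6793 bases and above) it was 0.49, with 63.3% higher and 8.60% lower. The medians rose through every bin between them. Under A-Delta the medians of the same bins lay between -0.04 and 0.04. The correlation of the genotype effect with log2 length across 15820 genes, which are not independent replicates, was 0.368 under N-Delta and 0.025 under A-Delta. Length and genotype cannot be told apart at the level of libraries, since no N-Delta library of either genotype overlapped the other group in its index. Counts over gene lists are therefore set beside those with gene-wise length offsets, which remove a smooth length trend from each library, and after adding the length index as covariate. Both corrections come from the same counts, and the index separates the genotypes completely in these 8 libraries. They can therefore remove genotype effect along with length. A call lost with either, or a gene left out of a set that requires both, is not thereby shown to be an effect of length. Offsets brought the medians of the bins to between -0.17 and 0.02. Other classes of RNA also differed: small nuclear RNA genes had a median of -0.71 and processed pseudogenes of -0.55, whereas sense intronic transcripts had 0.72. With offsets these medians were -0.16, -0.07 and 0.87, and under A-Delta -0.24, -0.03 and 0.30.

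**Figure D2:**
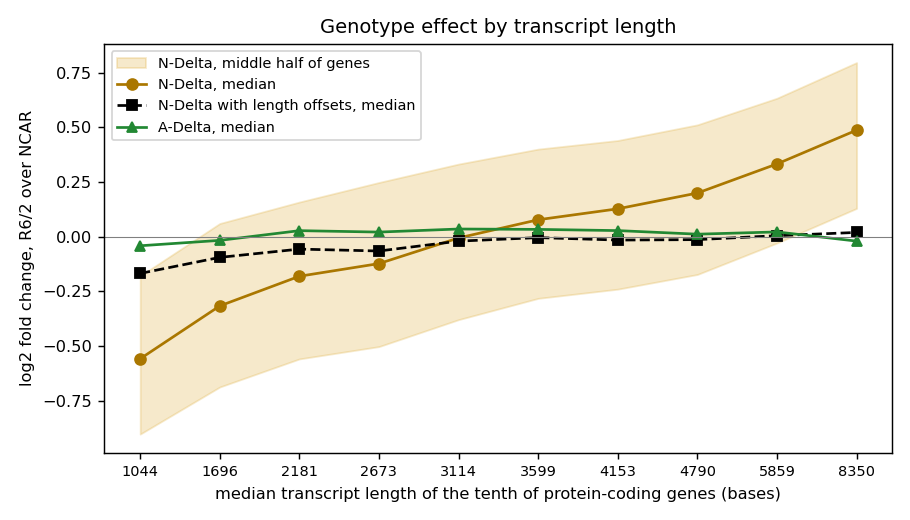
Median log2 fold change of R6/2 over NCAR (y axis) in 10 bins of protein-coding genes ordered by transcript length (x axis, median length in bases); the band runs between the quartiles of genes under N-Delta. The N-Delta medians climb from -0.56 to 0.49, the A-Delta medians lie between -0.04 and 0.04, and length offsets leave medians of -0.17 to 0.02.

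Under N-Delta 5897 genes rose in R6/2 (27.1% of those tested) and 6174 fell (28.4%), together 55.5%. At least 2-fold changes were found in 1187 rising genes (5.46%) and 1964 falling genes (9.03%). With length offsets 5349 rose (24.6%) and 5620 fell (25.8%), together 50.4%, and after adding that index as covariate 2275 rose (10.5%) and 2690 fell (12.4%). The same call was made with and without offsets for 4433 rising (20.4%) and 4575 falling genes (21%), and with and without the covariate for 1806 (8.3%) and 2019 (9.28%). With offsets, 87 genes (0.4%) were called in opposite directions. A stricter set was called the same way in the fit without correction, in both length-corrected fits, by DESeq2 and after leaving out each of the 8 libraries. It held 1491 rising genes (6.85%) and 1783 falling genes (8.2%), and is called the stable set below. The normalised levels of the 2 groups did not overlap for 5268 genes higher in R6/2 (24.2%) and 5247 lower (24.1%). Counts over gene lists are read against these shares, so a list in which about 1 in 4 genes changed in a direction does not stand apart from the table as a whole. The shares changed with length, from 4.85% higher and 58.3% lower in the shortest bin to 63.3% and 8.60% in the longest. A list of short or long transcripts can therefore differ from the whole table as its bin does. In the bin of 4452 to 5234 bases 43.7% rose and 17.9% fell. The oligodendrocyte precursor and clustered protocadherin lists had their median length there.

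Htt, the mouse huntingtin gene, had a transcript of 13215 bases and was checked first. Its level was 120.0, 178, 155 and 153 CPM in NCAR and 271, 224, 237 and 220.1 CPM in R6/2. The R6/2 libraries were all above the NCAR libraries, and the change was 0.65 ± 0.15 (adjusted p = 0.000565). With length offsets it was 0.06 (adjusted p = 0.391), and with the length index as covariate -0.01. Under A-Delta the change was -0.10, at 257 ± 31.4 CPM in NCAR and 239 ± 4.85 in R6/2 (SD, n = 4 each). The R6/2 means under the 2 viruses, 238 ± 23.4 under N-Delta, differed by less than 1 SD of the N-Delta libraries, while the NCAR mean was lower under N-Delta, at 151 ± 23.7. The human transgene has no row in the mouse gene table, so these counts check neither its presence nor its level.

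Genes shared by both classes of striatal projection neuron fell in 26 of 39 cases and rose in none, with a median of -0.76 against -0.03 over all genes tested. With length offsets 28 fell, with the length covariate 36 fell, and under A-Delta 34 of the same 39 fell (A-Delta background 13.7% higher and 15.3% lower). The list was compiled from known markers with earlier results of these data in view, so its direction is not independent evidence. Scn4b (ENSMUSG00000046480, chr9:45138395-45154152, mm10), an auxiliary subunit of sodium channels, lay at 283, 676, 438 and 388 CPM in NCAR and 132, 86.6, 82.8 and 93.6 CPM in R6/2. The groups did not overlap, and the change was -2.18 ± 0.32 (4.52-fold lower by the fitted change; adjusted p = 3.76e-06). Rgs4, a regulator of G-protein signalling, fell from 930.3, 871, 829.7 and 855 CPM to 276, 244, 293 and 254 CPM. Both groups were narrow, and the change was -1.71 ± 0.10, against -1.65 under A-Delta and -1.70 with offsets. Pcp4, a calmodulin-binding peptide, and Rgs14, another G-protein regulator, changed by -1.78 ± 0.12 and -2.17 ± 0.15. Ppp1r1b changed by -1.20 ± 0.21 and Pde10a, the striatal phosphodiesterase, by -0.90 ± 0.29. The effect under N-Delta was smaller than under A-Delta for Scn4b (difference 1.24 ± 0.43, adjusted p = 0.0404) and Pde10a (1.21 ± 0.40, adjusted p = 0.0348). With length offsets neither difference passed the test (1.02 and 0.76, adjusted p = 0.0669 and 0.0817), nor with the covariate. In 21 of the 39 genes the fall belonged to the stable set.

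Of the genes that mark the 2 output pathways, Penk, Drd1 and Adora2a fell and Drd2 did not pass the test. Penk (chr4:4133531-4138819) measured 731, 930.0, 686 and 626 CPM in NCAR and 268, 259, 222 and 223 CPM in R6/2. All R6/2 values were under the lowest NCAR value, and the change was -1.61 ± 0.21 (adjusted p = 1.03e-06; -1.34 with offsets, -2.05 under A-Delta). Drd1 fell from 331, 408, 333 and 377 CPM to 173, 154, 165 and 166 CPM (-1.14 ± 0.15, adjusted p = 1.57e-06). Adora2a, an adenosine receptor, changed by -1.11 ± 0.26, Chrm4, a muscarinic receptor of direct-pathway cells, by -0.91 ± 0.19, Gpr6, an orphan receptor of indirect-pathway cells, by -1.09 ± 0.23 and Plxdc1 by -1.27 ± 0.20. Of 7 indirect-pathway genes 4 fell and 2 rose, Sp9 (0.62) and Grik3 (1.02). Of 10 direct-pathway genes 3 fell, the third being the dynorphin gene Pdyn (-0.54), and 3 rose, Eya1 (0.85 ± 0.13), Ebf1 (1.10) and Zfp521 (0.80), all transcriptional regulators. With the covariate, 1 direct-pathway gene and no indirect-pathway gene still rose.

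Drd2 differed from its neighbours in this list. It lay at 24.0, 58.9, 42.5 and 36.2 CPM in NCAR and 35.3, 27.5, 29.3 and 29.5 CPM in R6/2, so the groups overlapped. The change of -0.41 ± 0.29 did not pass the test (adjusted p = 0.238; -0.35 with offsets). Under A-Delta it was -1.51 (adjusted p = 0.00032), and with the length covariate under N-Delta it was -1.54 (adjusted p = 5.88e-05). The lowest NCAR value was that of library 1, the NCAR library with the lowest length index, and whether the 2 are linked was not tested. The difference between the viruses, 1.10 ± 0.41, did not pass the test either (adjusted p = 0.055).

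**Figure D3:**
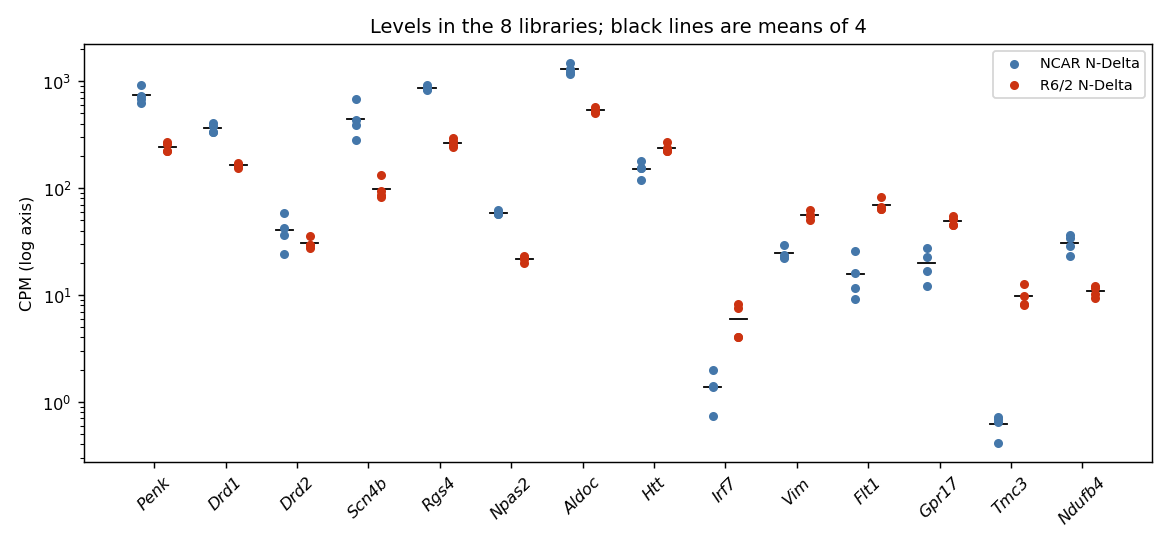
Level in CPM (log axis) of 14 genes in each of the 4 NCAR and 4 R6/2 libraries given N-Delta; black lines are group means. Penk, Drd1, Scn4b, Rgs4, Npas2, Aldoc and Ndufb4 were lower in every R6/2 library, Htt, Irf7, Vim, Flt1, Gpr17 and Tmc3 were higher, and the 2 groups overlapped for Drd2.

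Of 14 interneuron genes, 9 fell, and a rise was seen in none (10 with offsets, 11 with the covariate). The neuropeptides Npy and Sst changed by -1.01 ± 0.12 and -1.04 ± 0.14, and Pvalb, the calcium buffer of fast-spiking cells, by -1.73 ± 0.21. Cortical neuron genes fell in 7 of 16 cases (9 with offsets, 3 with the covariate, 7 under A-Delta), led by the matricellular gene Ccn2, which marks deep cortical cells (-2.03 ± 0.20), Nrgn, which binds calmodulin (-0.92 ± 0.13), and Lamp5 (-1.03 ± 0.16). Hypothalamic peptide genes fell in 7 of 11 tested cases, 7 with offsets, 4 with the covariate and 2 under A-Delta. Members with almost no counts in R6/2 N-Delta, such as Pmch and Avp, could pass the filter on low counts only through other groups. For them a fall was largely fixed by the filter, so the counts for this list are not evidence of one. Pmch, which encodes melanin-concentrating hormone, had 358, 33, 18 and 1627 counts in the NCAR libraries and 1, 0, 1 and 0 in the R6/2 libraries. Avp, the vasopressin gene, had 76, 11, 41 and 1139 and 2, 4, 4 and 1 counts. Most counts of both came from NCAR libraries 1 and 4. No fold is given for them, because the R6/2 counts are at or near the floor of 3 counts. Trh, which encodes thyrotropin-releasing hormone, was lower by a steadier amount, with 9.52, 4.69, 6.34 and 7.80 CPM in NCAR and 1.87, 1.48, 0.894 and 1.33 CPM in R6/2 (-2.34 ± 0.27; -1.96 under A-Delta). Without NCAR libraries 1 and 4, 29 of the 39 shared projection neuron genes fell and 28 of 47 interferon genes rose, while 3 of 11 hypothalamic genes fell. The part of tissue from outside the striatum in other genes was not tested.

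Activity-response genes, which neurons switch on within minutes of stimulation, fell in 22 of 36 cases and rose in 2, Fosb (0.64) and Klf4 (0.89), with a median of -0.69. With the covariate 21 fell and none rose, and under A-Delta 25 fell. Dusp1, a phosphatase that turns off MAP kinases, measured 15.5, 16.6, 20.5 and 22.2 CPM in NCAR and 5.71, 5.35, 6.65 and 6.10 CPM in R6/2 (-1.65 ± 0.20). Ier5 changed by -0.97 ± 0.12 and Klf10, a TGF-beta induced factor, by -1.21 ± 0.16. Circadian clock genes moved both ways, with 8 of 18 lower and 5 higher, 10 and 4 with offsets, 11 and 2 with the covariate and 12 and 3 under A-Delta. Npas2, a partner of Arntl in the clock complex, fell from 59.1, 62.8, 57.3 and 56.7 CPM to 22.8, 20.0, 23.2 and 21.5 CPM. No library of one group came near the other, and the change of -1.43 ± 0.09 held at -1.58 with offsets and -1.54 under A-Delta. Ciart and Dbp, which are both clock outputs, changed by -1.96 ± 0.15 and -1.37 ± 0.13. The 5 that rose were Per2 (0.73), Rora (0.68), Clock (0.66), Arntl (0.63) and Cry1 (0.32). The time of day of collection is not in the labels, and its part was not tested.

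Genes of synapses and channels, many with long transcripts, gave counts that changed with the length corrections. In the longest bin of protein-coding genes (6793 bases and above) 63.3% rose and 8.60% fell. Synaptic adhesion genes (median transcript 8766 bases) rose in 15 of 34 cases and fell in 2. With offsets 6 rose and 18 fell, with the covariate none rose and 11 fell, and under A-Delta none rose and 17 fell. Calcium channel and store genes went from 9 higher and 3 lower of 25 to 2 and 12 with offsets, and potassium channel genes from 4 and 8 of 38 to 3 and 18. Glutamate receptor genes went from 3 and 4 of 21 to 1 and 12, postsynaptic scaffold genes from 3 and 4 of 20 to 3 and 11, and sodium channel genes from 4 and 2 of 7 to 2 and 1. With the covariate none of these 5 lists had more than 1 gene higher, and the genes lower were 14 calcium channel and store, 25 potassium channel, 12 glutamate receptor, 12 postsynaptic scaffold and 4 sodium channel genes. Tenm3, a teneurin adhesion molecule, rose from 67.7, 150.2, 103 and 108 CPM to 319, 242, 261 and 222 CPM (1.28 ± 0.25) and remained higher with offsets at 0.82, but was at 0.21 with the covariate, which did not pass the test. Tenm1 changed by 0.69 ± 0.12 without and 0.09 with offsets. The calcium channel subunit Cacna1b changed by 0.62 ± 0.13 without and 0.10 with offsets.

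In the presynaptic release list 5 of 23 genes rose and 7 fell, 3 and 9 with offsets and 0 and 10 with the covariate. For GABA receptor genes the counts were 4 and 6 of 14, 1 and 6 with offsets and 0 and 3 with the covariate. For opioid and neuropeptide receptor genes they were 0 and 4 of 13, 1 and 4 with offsets and 1 and 6 with the covariate. Of all genes tested 27.1% rose and 28.4% fell. The synaptic and channel genes named next fell and belonged to the stable set, as did some but not all that fell in these lists. Rims1, a scaffold of the release site, fell from 469, 330.1, 461 and 496 CPM to 169, 178, 189 and 188 CPM (-1.28 ± 0.10; -1.66 with offsets). Its relative Rims2 changed by -0.69 ± 0.07 and the fusion protein gene Snap25 by -0.93 ± 0.13. Ryr1, which encodes a calcium release channel, has a transcript of 15358 bases and still fell from 10.5, 25.9, 20.5 and 12.8 CPM to 3.64, 2.99, 2.56 and 2.93 CPM (-2.52 ± 0.27; -3.13 with offsets). The kainate receptor gene Grik2 changed by -0.72 ± 0.08, the metabotropic receptors Grm2 and Grm3 by -1.63 ± 0.30 and -0.56 ± 0.11, and the adhesion gene Nlgn1 by -0.47 ± 0.07. Gabrd, the delta subunit of extrasynaptic GABA-A receptors, went from 168, 149, 142 and 129 CPM to 45.5, 39.2, 41.2 and 38.7 CPM (-1.84 ± 0.11), and Gabra4 changed by -0.77 ± 0.08. The kappa opioid receptor gene Oprk1 changed by -1.73 ± 0.15, the somatostatin receptor gene Sstr2 by -1.35 ± 0.16 and the NPY receptor gene Npy2r by -1.13 ± 0.24. The potassium channel genes Kcnh4 and Kcnj6 changed by -1.69 ± 0.28 and -1.49 ± 0.20. Kcnd3 rose by 0.94 ± 0.15 and was the only member of its list that rose with the covariate.

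Interferon-response genes, which cells induce after interferon or nucleic acid sensing, rose in 33 of 47 cases and fell in 2, Herc6 (-0.63) and Cmpk2 (-0.24). The median was 0.89. The length corrections hardly altered this count: 34 rose with offsets and 32 with the covariate. Under A-Delta 32 rose, and 27 belonged to the stable set. Irf7 (chr7:141262706-141266481), a master factor of the response, lay at 1.36, 1.40, 1.99 and 0.733 CPM in NCAR and 4.06, 8.31, 7.61 and 4.06 CPM in R6/2. The R6/2 libraries spread over about a factor of 2, yet all were above the NCAR libraries (2.13 ± 0.29, adjusted p = 1.75e-06). Dtx3l, a ubiquitin ligase, was steadier, at 3.66, 4.14, 4.24 and 3.86 CPM against 13.3, 11.8, 15.5 and 12.6 CPM (1.74 ± 0.13). The RNA sensors Ddx58 and Eif2ak2 changed by 1.70 ± 0.16 and 1.46 ± 0.14. Ifi44 and Oasl2 were among the 6 largest increases of called genes averaging 2 CPM or more without overlap, at 2.56 ± 0.52 and 2.53 ± 0.35. Microglial genes, one class of cell that makes this response, were mixed, with 6 higher and 9 lower of 24 (7 and 6 with offsets).

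The promoters of these genes were searched for GAAANNGAAA, the core of the interferon-stimulated response element, on either strand, in the window from 250 bases before to 50 bases after the start of each gene (RefSeq, GRCm38.p6). The motif was found in 14 of 36 interferon-response genes with a promoter entry (38.9%) and in 496 of 13401 genes tested that had one (3.70%). It was present in 11 of the 25 such genes that rose in R6/2 and had an entry. The match is a description of letters and shows no binding. A stretch of 60 bases from the promoters of 4 of the genes that rose is shown, with the motif in capitals (TTTCNNTTTC on the opposite strand) to show the letters that were matched.
Ifit1, chr19:34640760-34640819, plus strand: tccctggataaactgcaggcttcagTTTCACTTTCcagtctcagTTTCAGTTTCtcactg
Oas1a, chr5:120907526-120907585, minus strand: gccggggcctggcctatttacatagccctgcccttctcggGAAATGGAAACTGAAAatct
Bst2, chr8:71537568-71537627, minus strand: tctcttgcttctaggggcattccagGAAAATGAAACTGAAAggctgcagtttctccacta
Gbp3, chr3:142559974-142560033, plus strand: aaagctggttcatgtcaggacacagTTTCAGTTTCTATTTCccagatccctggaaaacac
Each of these 4 stretches held more than 1 match, overlapping in Oas1a, Bst2 and Gbp3 and separate in Ifit1. The genes changed by 1.81 ± 0.26, 1.42 ± 0.38, 0.997 ± 0.34 and 0.92 ± 0.24, in the same order. Ifit1 encodes a protein that binds foreign RNA, Oas1a an oligoadenylate synthetase, Bst2 the virus-tethering protein tetherin and Gbp3 a guanylate-binding protein.

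Astrocyte genes of the resting state fell in 13 of 24 cases, and 1 rose. Under offsets 10 fell, with the covariate 11 and under A-Delta 15, and none rose. Aldoc, a glycolytic enzyme of astrocytes, measured 1482, 1171, 1212 and 1309 CPM in NCAR and 519, 508, 538 and 577 CPM in R6/2. All R6/2 values lay below all NCAR values, and the change was -1.27 ± 0.12 (-1.24 with offsets). Mfge8 and the glutamate transporter gene Slc1a3 changed by -0.71 ± 0.09 and -0.64 ± 0.09. The other glutamate transporter gene, Slc1a2, lay at 836, 2133, 1861 and 1586 CPM in NCAR and 2161, 1974, 1598 and 1878 CPM in R6/2, and its change of 0.25 ± 0.20 did not pass the test. Under A-Delta Slc1a2 fell (-0.70 ± 0.20), and the difference between the viruses was 0.95 ± 0.28 (adjusted p = 0.0247; 0.35 with offsets). Genes of reactive astrocytes were split, with 9 of 32 higher and 7 lower, 10 and 7 with offsets, 5 and 2 with the covariate and 6 and 4 under A-Delta. Vim, an intermediate filament, rose from 22.9, 23.5, 29.5 and 22.4 CPM to 55.1, 61.8, 55.6 and 50.6 CPM (1.18 ± 0.14), Osmr, the oncostatin receptor, by 1.24 ± 0.19 and the copper carrier gene Cp by 0.90 ± 0.11. Gfap, the filament used most often as a sign of reactive astrocytes, was 175.1, 127, 123 and 113 CPM in NCAR and 117, 119.8, 107 and 114 CPM in R6/2. The groups overlapped (-0.23 ± 0.19, adjusted p = 0.307).

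Of 21 myelinating oligodendrocyte genes, 9 fell, and a rise was seen in 3, among them Myrf (1.33) and Sox10 (0.87). With offsets 9 fell and 3 rose, with the covariate 6 fell and none rose, and under A-Delta 11 fell and none rose. With the covariate Sox10 was at -0.03. Aspa, which breaks down N-acetylaspartate, changed by -1.33 ± 0.20, and the myelin genes Mal and Mobp by -1.05 ± 0.17 and -0.997 ± 0.18. Genes of oligodendrocyte precursors rose in 12 of 15 cases with none lower, and in 11 with offsets. With the covariate 2 rose, and under A-Delta 1 rose and 1 fell. Gpr17, a receptor of committed precursors, lay at 12.0, 27.7, 22.7 and 16.6 CPM in NCAR and 55.0, 50.8, 45.4 and 45.3 CPM in R6/2 (1.31 ± 0.23; 0.08 under A-Delta). NCAR library 1, which had the lowest length index, was also the lowest here, and a link between them was not tested. Pdgfra, the growth factor receptor of precursors, changed by 0.88 ± 0.15 and the matrix gene Tnr by 1.08 ± 0.19.

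Of 33 vascular genes, 18 rose, and a fall was seen in 3, with 22 higher under offsets, 1 with the covariate and 1 under A-Delta. Flt1, a VEGF receptor, lay at 9.26, 25.5, 16.02 and 11.7 CPM in NCAR and 83.3, 67.0, 64.4 and 63.8 CPM in R6/2. The lowest R6/2 library was more than 2-fold above the highest NCAR library (2.15 ± 0.36). Under A-Delta the means were 39.9 ± 10.8 and 58.1 ± 5.09 CPM (0.54 ± 0.34), so the NCAR mean was lower under N-Delta than under A-Delta. Abcb1a, the drug efflux pump of the blood-brain barrier, changed by 1.45 ± 0.25, and Tagln, a smooth muscle gene with a transcript of 1595 bases, by -1.76 ± 0.21. Microglial Sall1, a transcription factor, changed by 1.07 ± 0.16, and the receptor genes Tyrobp and Trem2 by -1.10 ± 0.19 and -0.92 ± 0.17. With the covariate 1 of 24 microglial genes rose, Sall1, and none fell.

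Genes for nuclear-encoded subunits of oxidative phosphorylation fell in 71 of 76 cases and rose in 1. Their transcripts are short (median 1186 bases). In the shortest bin of protein-coding genes (102 to 1392 bases) 58.3% fell, and 33.5% still fell with offsets. Of the oxidative phosphorylation list 60 fell and 4 rose with offsets, 24 fell and 1 rose with the covariate, and 5 fell and none rose under A-Delta. Ndufb4, a subunit of complex I, lay at 36.1, 22.997, 28.6 and 34.1 CPM in NCAR and 9.34, 10.3, 12.1 and 11.6 CPM in R6/2 (-1.49 ± 0.19; -1.09 with offsets, -0.62 with the covariate, -0.60 under A-Delta). It passed the test in all 4. Ndufb10 and Ndufs3, of the same complex, changed by -0.84 ± 0.11 and -0.64 ± 0.09. Ribosomal protein genes fell in 66 of 78 cases, 53 with offsets and 12 with the covariate, against 5 under A-Delta. Rps19 changed by -1.21 ± 0.17, Rpl27a by -0.88 ± 0.13 and Rpl31 by -0.66 ± 0.08. Of 31 proteasome genes 25 fell and 3 rose, and with the covariate 2 fell and 1 rose. Psma7 changed by -1.09 ± 0.17, Psmd13 by -0.83 ± 0.14 and Psmc5 by -0.38 ± 0.06. Ribosomal protein genes have many processed pseudogenes, so the way reads were shared between copies is uncertain.

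Of 25 cholesterol synthesis genes, 21 fell, and a rise was seen in 1, Lss (0.29, and -0.10 with offsets). In 20 cases they fell with offsets, in 14 with the covariate and in 19 under A-Delta. Msmo1, a sterol demethylation enzyme, lay at 131, 118, 123 and 119 CPM in NCAR and 53.8, 48.8, 64.4 and 53.3 CPM in R6/2 (-1.16 ± 0.12). Both groups were narrow and far apart. Insig1, a sterol sensor, and Fdft1, squalene synthase, changed by -1.09 ± 0.12 and -0.94 ± 0.09.

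Of 28 endoplasmic reticulum stress genes, 17 rose, and a fall was seen in 4, Trib3 (-1.06), Ddit3 (-0.37), Sdf2l1 (-0.29) and Dnajb9 (-0.27). With offsets 19 rose, with the covariate 12 and under A-Delta 10. Those that rose include Ern1, the sensor IRE1 (1.13 ± 0.17), Edem1, which hands misfolded proteins to degradation (0.95 ± 0.14), and the co-chaperone gene Dnajc3 (49.9, 61.9, 61.1 and 60.8 CPM against 105, 98.2, 97.0 and 98.9 CPM; 0.77 ± 0.09). Trib3, a target of the stress factor CHOP, was at -0.90 with offsets and passed the test there. Ddit3, which encodes CHOP, and Sdf2l1 turned to 0.022 and 0.068 with offsets, and Dnajb9 to 0.015 with the covariate, none of which passed the test. Of 24 heat-shock chaperone genes, 11 rose, and a fall was seen in 2, Hspe1 (-0.89 ± 0.16) and Dnajb6 (-0.17). The mitochondrial chaperonins Hspd1 and Hspe1 work together and went opposite ways, since Hspd1 changed by 0.64 ± 0.10. Counts for the list were 10 higher and 3 lower with offsets, 4 and 0 with the covariate and 9 and 0 under A-Delta. With the covariate Hspe1 was at -0.20 and did not pass the test. Hspa4 changed by 0.43 ± 0.08.

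Developmental regulators, which adult striatum mostly keeps silent, were counted at low levels in R6/2. Of 39 Hox genes 6 passed the filter on low counts, and a gene with no counts in NCAR could pass it only through R6/2 or another group. Hoxc4 had 6, 6, 16 and 16 counts in the 4 R6/2 libraries, Hoxb5 had 8, 17, 31 and 11 and Hoxc6 had 5, 10, 16 and 5. All 3 had 0 counts in each NCAR library, which allows up to 3 counts per library. These levels were under 0.5 CPM. Of 64 other developmental factors 29 passed the filter. Since such genes could pass it through R6/2, no count of those that changed is given. Pou4f1, a sensory neuron factor, lay at 0, 0.0815, 0.0199 and 0.0524 CPM in NCAR and 0.985, 1.96, 2.65 and 1.14 CPM in R6/2. No fold is given for it, because the NCAR counts are at or near the floor of 3 counts. Wt1 and Irx5, of the same list, changed by 3.20 ± 0.49 and 1.96 ± 0.33. They too could pass the filter through R6/2, so their rise is not independent evidence. Levels of Wt1 were low and uneven, and NCAR library 1 (0.392 CPM) and R6/2 library 3 (2.65 CPM) stood apart within their groups. Under A-Delta Wt1 changed by 3.48. Genes of the Polycomb complexes, which keep such genes silent, rose in 19 of 32 cases and fell in 5, with offsets in 16 and 6 and under A-Delta in 8 and 2. Ezh2, the methyltransferase of the complex PRC2, changed by -0.78 ± 0.10 and its partner Suz12 by 0.66 ± 0.07. With the covariate 5 rose and 2 fell.

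Clustered protocadherin genes, which give neurons their surface identity, rose in 40 of 57 cases and fell in 1. With offsets 28 rose and 4 fell, with the covariate 6 and 2, and under A-Delta 9 and 4. Pcdhb21, Pcdhb22 and Pcdhb17 changed by 1.40 ± 0.17, 1.31 ± 0.16 and 0.85 ± 0.13, and all 3 belonged to the stable set. Members of a cluster resemble each other and overlap in part, so counts for single members are uncertain. Of 27 replication and mitosis genes 9 rose and 3 fell, Ccnb1 (-1.09), Ccnb2 (-0.65) and Pcna (-0.59). With offsets 9 rose and 2 fell, with the covariate 6 and 0 and under A-Delta 8 and 1. Tpx2, a spindle factor, lay at 2.87, 4.14, 3.89 and 3.02 CPM in NCAR and 14.4, 16.05, 13.8 and 17.3 CPM in R6/2. The change of 2.14 ± 0.14 was alike under A-Delta (2.09). The mitotic kinesins Cenpe and Kif11 changed by 1.59 ± 0.21 and 0.93 ± 0.13. Of 12 mismatch repair genes, a family known for its part in CAG repeat expansion, 6 rose and 3 fell, 4 and 3 with offsets, 4 and 1 with the covariate and 4 and 0 under A-Delta. Msh6 changed by 0.64 ± 0.08 and Pms1 by -0.86 ± 0.13, and both kept their call with offsets and with the covariate. Mlh3 rose by 0.29 ± 0.06 and was at 0.00 with offsets. Of 11 nuclear long noncoding RNAs 7 rose and 3 fell, 2 and 3 with offsets, 3 and 1 with the covariate and 3 and 1 under A-Delta. Kcnq1ot1, whose longest transcript has 93092 bases, changed by 1.05 ± 0.15 without and 0.08 with offsets, Tug1 by 0.83 ± 0.13 and Pantr1 by -0.74 ± 0.09.

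**Figure D4:**
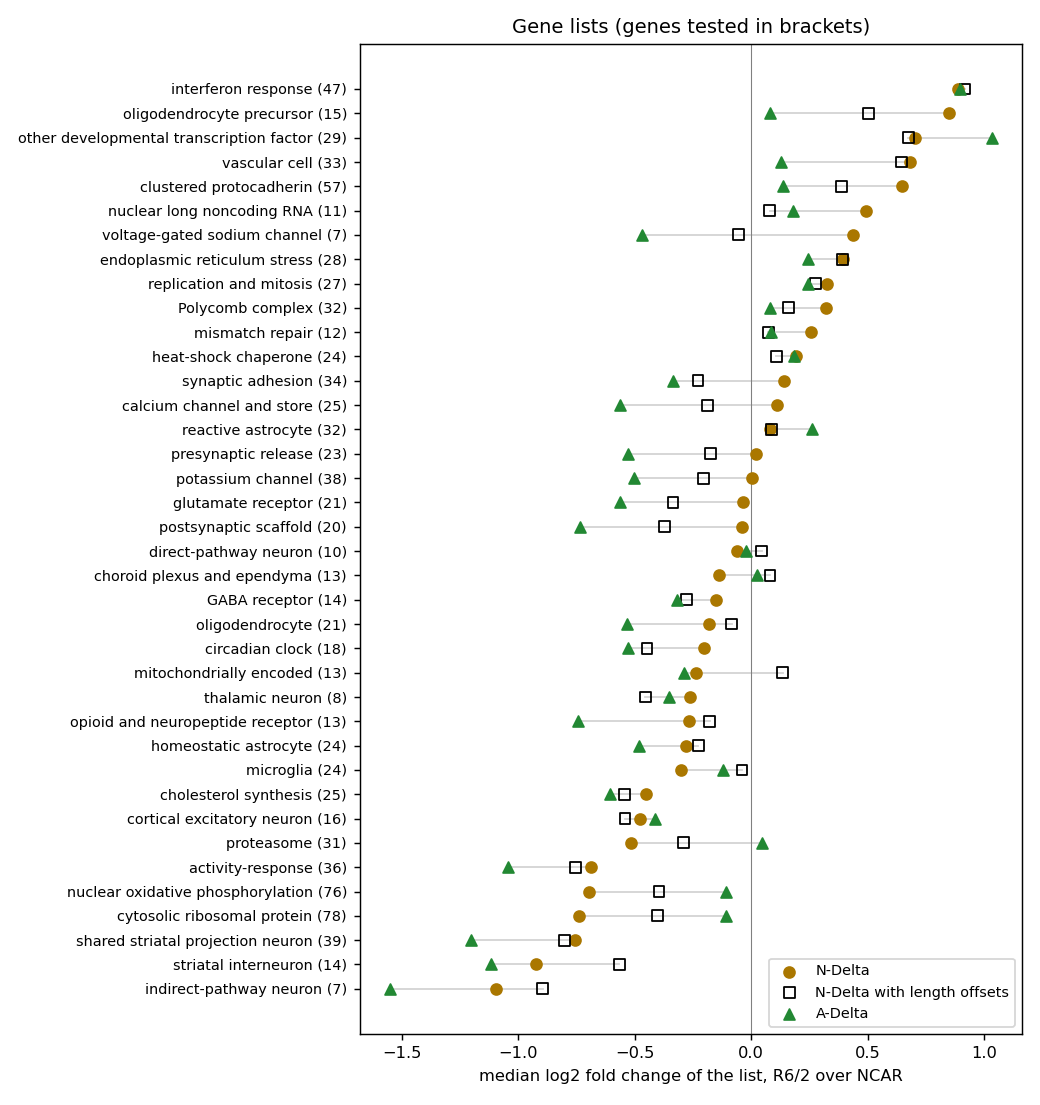
Median log2 fold change of R6/2 over NCAR (x axis) of the gene lists with at least 7 tested genes (number in brackets), under N-Delta without and with length offsets and under A-Delta. Interferon-response genes lie near 0.9 in all 3, whereas the sodium channel list moves from 0.44 to -0.05 with offsets and lies at -0.47 under A-Delta, and oxidative phosphorylation from -0.70 to -0.40 and -0.11.

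Of called genes that averaged 2 CPM or more and whose groups did not overlap, the highest changes were in Tmc3, Ppl, Plin4, Ifi44, Oasl2 and Rab11fip1. Tmc3 (ENSMUSG00000038540, chr7:83584927-83625614), a member of the transmembrane channel-like family, lay at 0.411, 0.717, 0.697 and 0.646 CPM in NCAR and 12.6, 8.31, 8.11 and 9.83 CPM in R6/2. This was 15.6-fold higher by the fitted change (3.97 ± 0.36, adjusted p = 3.2e-09), and 3.63 with offsets and 2.66 under A-Delta. Ppl, the junction protein periplakin, changed by 3.87 ± 0.46, and Rab11fip1, a recycling endosome protein, by 2.43 ± 0.33. The lipid droplet gene Plin4 was uneven, at 7.76, 3.57, 5.44 and 22.0 CPM in R6/2 against 0.989, 1.68, 1.06 and 2.15 CPM in NCAR (2.71 ± 0.75). Its call was lost with the covariate, and the other 5 belonged to the stable set, where Flt1 took its place.

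The rule for the lowest changes also took in Pmch and Avp, for which a fall was largely fixed by the filter on low counts. Their place in the ranking and in the stable set is therefore not evidence. The next lowest changes were in Abhd11os, Abi3bp, Sec14l3 and Serpinb1b, which belonged to the stable set. Abhd11os (chr5:135012114-135013253, minus strand), annotated as a transcribed unitary pseudogene, lay at 7.35, 9.75, 10.4 and 8.17 CPM in NCAR and 0.188, 0.211, 0.0758 and 0.203 CPM in R6/2. That was 52.1-fold lower by the fitted change (-5.70 ± 0.27, adjusted p = 5.18e-14; -5.26 under A-Delta). Whether counting used strand is not given in the sources used here, so reads of Abhd11os and of Abhd11 on the opposite strand may not be fully apart. Abhd11 changed by -0.61 ± 0.08. Abi3bp, a matrix protein gene, fell from 15.7, 12.5, 15.6 and 20.0 CPM to 1.06, 1.12, 0.697 and 0.983 CPM (-4.04 ± 0.36). Sec14l3, a lipid-binding protein gene, changed by -3.96 ± 0.40, and the protease inhibitor gene Serpinb1b by -3.77 ± 0.34.

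The genotype effect under N-Delta differed from that under A-Delta in 2454 genes with a higher value (11.3%) and 2527 with a lower one (11.6%), by the edgeR test of the difference itself. The 2 comparisons share no library. Direction was called in both for 1991 higher and 2166 lower genes and in opposite ways for 76. With length offsets the differing genes were 1031 (4.74%) and 1692 (7.78%), and with the length covariate 0 and 0, with 921 genes at an unadjusted p under 0.05 and a smallest adjusted p of 0.998. The differences with the covariate still correlated with those without it (r = 0.678 over genes, which are not independent replicates). Leaving out NCAR N-Delta 1 or R6/2 N-Delta 1 also left 0 and 0 by edgeR, with 6597 and 7285 genes at an unadjusted p under 0.05 and smallest adjusted p of 0.0675 and 0.0526. DESeq2, on all libraries, called 3180 and 2947. By list, 62 of 76 oxidative phosphorylation genes, 51 of 78 ribosomal protein genes and 24 of 31 proteasome genes differed toward lower values under N-Delta. Toward higher values differed 19 of 34 synaptic adhesion genes, 17 of 25 calcium channel and store genes and 18 of 38 potassium channel genes. With offsets the counts toward lower values were 33, 24 and 20, and those toward higher values 3, 5 and 6, with 2 synaptic adhesion genes toward lower. The interferon list differed in 2 of 47 cases and the shared projection neuron list in 5 of 39, all toward higher values, and with offsets in 1 and 0.

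The genes with the smallest p for a positive difference were Prrc1, Sema5a, Dcx and Zfp362, with differences of 0.79 ± 0.14, 1.13 ± 0.20, 0.75 ± 0.14 and 1.07 ± 0.21 (edgeR adjusted p = 0.0223 for each). Dcx, a microtubule protein of young neurons, lay at 12.6 ± 1.24 CPM in NCAR and 23.5 ± 1.79 in R6/2 under N-Delta, and at 17.6 ± 1.71 and 19.5 ± 2.06 under A-Delta. Its difference was 0.21 with offsets. Sema5a, an axon guidance gene, did not pass the genotype test under N-Delta (0.29 ± 0.14) but fell under A-Delta (-0.84 ± 0.14). For Zfp362, a zinc-finger gene with a transcript of 2812 bases, the difference with offsets was 1.11, and it passed the test there too. The smallest p for a negative difference were those of Efcab7 (-1.59 ± 0.26), Ube2cbp (-1.04 ± 0.19), Romo1 (-0.90 ± 0.18) and Ogg1 (-0.68 ± 0.14). Efcab7, a ciliary protein gene, was at 10.8, 7.24, 6.67 and 9.53 CPM in NCAR and 3.58, 3.18, 2.88 and 4.54 CPM in R6/2, and under A-Delta the means were 4.31 ± 0.287 and 5.39 ± 0.296. Ogg1, which removes oxidised guanine from DNA, changed by -0.72 ± 0.10 under N-Delta and -0.04 under A-Delta. In all 4 the difference passed the test with offsets, at -1.38, -0.85, -0.45 and -0.45, and in none with the covariate.

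**Figure D5:**
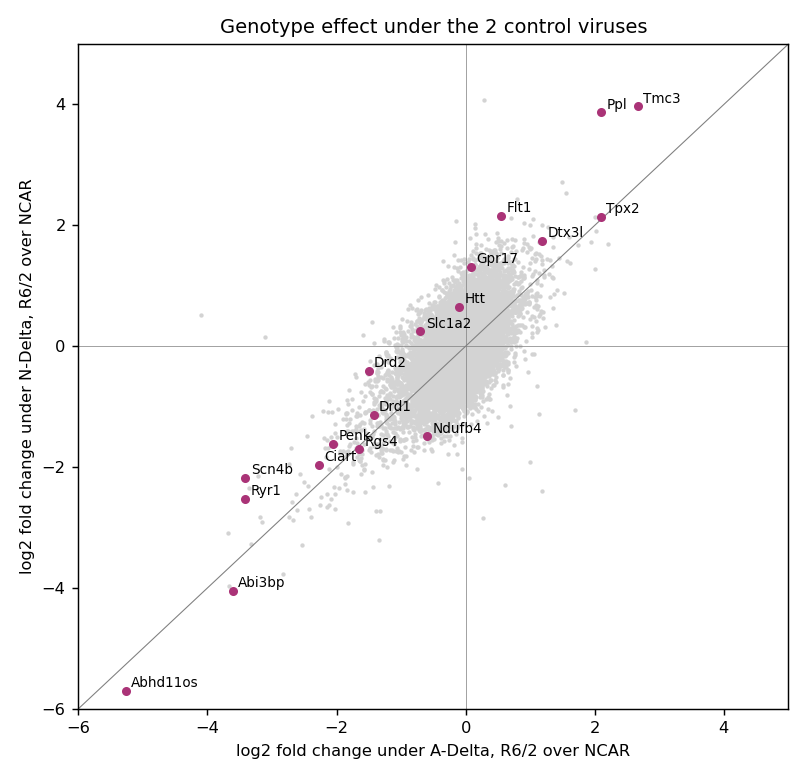
Log2 fold change of R6/2 over NCAR under A-Delta (x axis) and N-Delta (y axis) for genes averaging 2 CPM or more over the 16 libraries (grey) and 18 named genes; the diagonal marks equal changes. Rgs4, Tpx2 and Abi3bp lie near the diagonal, Flt1 and Gpr17 lie well above it at 2.15 and 1.31, and Scn4b lies at -2.18 against -3.41 under A-Delta.

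Of genes called in opposite directions with and without length offsets, the 4 with the smallest p among those that rose without them were Xpo7, Nr2c2, Ltn1 and Kdm5a, with transcripts of 7647 to 15121 bases. Xpo7, a nuclear transport gene, was at 106, 116, 112 and 122 CPM in NCAR and 140.3, 139, 133 and 137 CPM in R6/2 (0.26 ± 0.06), and at -0.39 with offsets. Nr2c2, Ltn1 and Kdm5a went from 0.27, 0.24 and 0.33 to -0.17, -0.21 and -0.23. Those that fell without offsets were Lamtor2, Pgam1-ps2, Tmbim4 and Trappc1, with transcripts of 668 to 904 bases. They went from -0.27, -0.27, -0.18 and -0.26 to 0.20, 0.18, 0.23 and 0.19. None of the 8 passed the test with the covariate.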

How the data were processed

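Bulk striatal RNA was sequenced from R6/2 and NCAR mice. The labels' protocols name a Qiagen RNeasy kit for extraction and the Illumina TruSeq kit for stranded total RNA. The submitters' processing notes name STAR, HTSeq and the mm10 build. Versions, the annotation and the strand setting are not given in the sources used here. The authors deposited unnormalised whole-number read counts for 48795 Ensembl gene IDs, and GENCODE M21 held 48435 of these. Coordinates and transcript lengths are from that release.

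From these counts, edgeR 4.0.16 (R 4.3.3) kept 21752 genes with filterByExpr, applied TMM scaling and fitted 1 coefficient per group by quasi-likelihood over the 31 bulk libraries of the R6/2 series in 8 groups, which share 1 estimate of spread. DESeq2 1.42.0 was an alternative. The main fit and the fit with length offsets were run on simulated counts with known changes. Those counts held no length trend between libraries, so the run does not test the fits where length and genotype go together. Length offsets were lowess trends (span 0.3) of each library against log2 length. Measures of whole libraries were tested by exact permutation, two-sided. A count of 0 allows 3 counts, for counting error only. No pair of the 8 libraries held identical counts. Alternatives were other scalings, filters, samples, length corrections, a replicate block and leaving out libraries.

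Genes were named by a rule: a panel of striatal, glial and hypothalamic genes, the 3 smallest p per list described, the 6 largest called changes each way averaging 2 CPM or more with no overlap, the same in the stable set, the 4 smallest p each way of the difference between viruses, and the 4 smallest p each way among direction changes with length offsets. Genes named because few members of a list were called, and those with promoters printed, were chosen after their values were seen. The libraries, lists and tests were chosen with earlier results of these data known. Some genes that the rule names are not reported here.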

Additional observations from a re-analysis of the deposited data

Results flagged for a closer look

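Among 350 groups of 4 libraries tested for a library whose gap to the nearest other, as a share of the group's range, exceeded Dixon's critical value, 29 were singled out. Chance singles out about 1 in 20 groups. A pair of library measures was among them, both for R6/2 library 1, with a length index of 0.309 and a total of 67632089 counts.

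In NCAR library 1 the level stood apart from the other 3 libraries for Wt1 (0.392 CPM), Cmpk2 (44.4 CPM), Aspa (96.9 CPM), Dnajc3 (49.9 CPM), Clock (90.1 CPM), Tyrobp (29.0 CPM), Insig1 (94.1 CPM) and Per2 (13.4 CPM). In NCAR library 2 it did so for Pdyn (95.8 CPM), in NCAR library 3 for Vim (29.5 CPM) and Nrgn (310.0 CPM), and in NCAR library 4 for Mfge8 (144 CPM) and Avp (19.9 CPM). In R6/2 library 1 the levels of Grm3 (137 CPM), Ern1 (12.8 CPM), Flt1 (83.3 CPM), Rpl27a (30.7 CPM), Ltn1 (115 CPM) and Tug1 (203 CPM) stood apart. In R6/2 library 2 those of Mlh3 (59.0 CPM) and Arntl (49.4 CPM) did. In R6/2 library 3 those of Wt1 (2.65 CPM), Suz12 (68.0 CPM), Aspa (25.9 CPM), Klf10 (28.9 CPM), Ddx3y (117 CPM) and Abhd11os (0.0758 CPM) did.

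The genotype effect differed between the N-Delta and A-Delta comparisons, by edgeR's test of the difference, in 2454 genes with a higher and 2527 with a lower value under N-Delta. Both counts were 0 with the length covariate, without NCAR N-Delta 1 and without R6/2 N-Delta 1. Whether the virus made the difference was not tested. Named genes that differed in the fit without correction were Prrc1 (0.79), Sema5a (1.13), Dcx (0.75), Zfp362 (1.07), Efcab7 (-1.59), Ube2cbp (-1.04), Romo1 (-0.90) and Ogg1 (-0.68), as differences in log2 fold change.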

How the results depend on the processing

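The length index differed between the genotypes by 0.525 to 0.607 on leaving out single libraries. The index of GC content moved between -0.0315 and 0.0700, and the mitochondrial share between -1.48 and 0.222 percentage points. The counts of genes changed by genotype stayed within 1.5 times except with the length covariate, at 2275 and 2690. The counts that differed between viruses were 1031 higher with length offsets, 1082 and 1654 with length and GC offsets, 1602 higher without the filter on low counts, and 0 and 0 with the covariate. They ranged from 0 to 3676 higher and from 0 to 3330 lower on leaving out single libraries, with 0 without NCAR 1 or R6/2 1. Without both NCAR libraries high in hypothalamic genes they were 0 and 0 by edgeR, with 4947 genes at an unadjusted p under 0.05 and a smallest adjusted p of 0.154. DESeq2 was not run on that subset. The cause was not tested.

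Named genes turned direction in length fits. With length offsets, length and GC offsets, and length offsets in the 8 libraries alone, an alternative chosen after seeing the data, the values were -0.17, -0.13 and -0.18 for Nr2c2, 0.23, 0.23 and 0.25 for Tmbim4, -0.39, -0.32 and -0.39 for Xpo7, 0.20, 0.13 and 0.23 for Lamtor2, -0.23, -0.16 and -0.23 for Kdm5a, 0.19, 0.20 and 0.22 for Trappc1, -0.21, -0.14 and -0.22 for Ltn1, 0.18, 0.10 and 0.21 for Pgam1-ps2, 0.022, 0.066 and 0.042 for Ddit3 and -0.097, -0.091 and -0.103 for Lss. Sdf2l1 was at 0.068 with length offsets and 0.085 in the 8 libraries alone, where Mlh3 was at -0.0048. With the covariate Grik3 was at -0.14, Dnajb9 at 0.015, Htt at -0.011, Kdm5a at -0.014, Sox10 at -0.034, Sp9 at -0.11 and Pgam1-ps2 at 0.0039.

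Deviations from the group mean were no more alike in same-numbered libraries (r = -0.16 to 0.09) than in others (r = -0.09 to 0.20). The mitochondrial share was nevertheless highest in library 4 of both groups, at 11.4% in NCAR and 11.6% in R6/2. Whether the numbers mark a shared batch or block was not tested. The replicate block gave 5875 and 6171 calls by genotype and 2268 and 2501 between viruses, and 0.57 for the length index (exact sign-flip p = 0.125, the smallest that 4 pairs allow). Of 168 named genes it ended the call of 1.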
